A study of Canis lupus familiaris with 6 samples.

Results

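The genes of oxidative phosphorylation were examined in 3 canine mammary tumor cell lines. They were taken as every array probe whose gene name starts with NDUFA, NDUFB, NDUFC, NDUFS or NDUFV, with COX4 to COX8, with UQCR or with ATP5, or is SDHA, SDHB, SDHC, SDHD, CYC1 or CYCS. This rule gave 107 probes of 68 genes, out of 43603 probes on the array and 13193 named genes that were tested. All 107 probes passed the filter on low intensity. The brightest probe stood for each gene. By their names, 34 genes belong to complex I, 4 to its assembly factors (NDUFAF1 to NDUFAF4), 4 to complex II, 8 to complex III, 1 is cytochrome c (CYCS), 7 belong to complex IV and 7 to complex V. The name rule also took in COX4NB, ATP5S and ATP5SL, which are 3 genes not counted as subunits.

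The lines were P114, from an anaplastic cancer, CMT-U27, from a simple carcinoma, and CMT-U309, from a spindle cell tumor. Each line was grown alone (monoculture) or beneath inserts that held myeloid-derived suppressor cells (MDSCs) sorted from dog blood (co-culture), for at least 72 h by the sample descriptions. RNA of the tumor cells from both conditions of a line was hybridised together on 2 two-color arrays. The first array carried co-culture RNA in the red dye Cy5 and the second carried it in the green dye Cy3. The 6 arrays therefore gave 12 channels from 6 RNA samples, 1 sample per line and condition. In the test of co-culture, the spread between lines stood for the error. In the comparisons between lines, the co-culture and the monoculture sample of a line stood for its spread, with condition as a term.

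Oxidative phosphorylation is the last step of respiration in the inner membrane of mitochondria. Complex I (NADH dehydrogenase) and complex II (succinate dehydrogenase) pass electrons to ubiquinone, complex III passes them to cytochrome c, and complex IV (cytochrome c oxidase) passes them to oxygen. Complexes I, III and IV pump protons, and complex V (ATP synthase) uses the proton gradient to make ATP. Several subunits of complex IV have a second gene whose product is typical of heart and skeletal muscle (COX6A2, COX7A1) or of lung (COX4I2). Tumor cells vary widely in how much of their ATP they draw from this pathway.

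Of the 68 genes, 65 gave a signal flagged as well above background in all 12 channels. The exceptions were NDUFA1 (none of the channels), NDUFA4L2 (4 channels) and COX7A1 (8 channels). No probe of the set was saturated. Between 53.0% and 81.0% of all spots were well above background in a channel. Markers of cell type stood apart between lines. The epithelial genes EPCAM and KRT19 were higher in CMT-U27 than in CMT-U309 by 8.75 and 11.33 on the log2 scale, while KRT14 of the same list gave -1.53, and the mesenchymal gene VIM gave 6.67 for P114 minus CMT-U27 and -6.04 for CMT-U27 minus CMT-U309. Among the 13 myeloid markers measured, SPI1, ITGAM and LYZ stayed at background in all 12 channels. Each line was hybridised on a slide of its own, so that line and slide cannot be told apart in any comparison between lines.

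The cell lines differed in their level of these genes. A level is the log2 processed signal brought to the same median in all channels. The median level over the 68 genes was 13.89 to 14.09 in the 4 channels of CMT-U27, 13.29 to 13.72 in those of P114 and 12.87 to 13.05 in those of CMT-U309. The ranges of the 3 lines did not overlap. Medians over the 7907 genes well above background in all channels had the same order, also without overlap. They were 9.60 to 9.65 in CMT-U27, 9.40 to 9.48 in P114 and 9.27 to 9.38 in CMT-U309. The order CMT-U27 over P114 over CMT-U309 was found in 35 of the 68 genes (51.5%), against 29.0% of the 7907 genes well above background in all channels. The second most common order, with P114 first and CMT-U27 second, was found in 14 genes (20.6%, against 13.4%).

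Between CMT-U27 and CMT-U309, 23 genes were higher in CMT-U27 and 3 were lower (limma, adjusted p under 0.05 and a difference over 1 on the log2 scale). Of all named genes, 17.9% were called higher and 14% lower by the same rule, while the 23 genes are 33.8% of the set. Some of these calls were lost with quantile normalization, among them NDUFS8, UQCRQ and ATP5C1, which fell to 0.81, 0.64 and 0.84. NDUFA4 gave -1.21 there and passed as lower. The median difference of the set was 0.71, a fold change of 1.63, compared with 0.08 for all named genes and 0.24 for those well above background in every channel. In 41 genes, all 4 channels of CMT-U27 lay above all 4 channels of CMT-U309, and in 6 genes they lay below. The shares over all named genes were 29.9% and 20.3%. For P114 over CMT-U309 such separation was found in 32 genes upward and 5 downward (19.2% and 15% of all named genes), and for P114 over CMT-U27 in 9 upward and 24 downward (18.8% and 26.1%). Between P114 and CMT-U309, 8 genes were higher in P114 and 3 were lower, with 7.31% and 8.03% of all named genes called, and the median difference was 0.45. These counts turned with the scaling, to 2 higher and 4 lower after quantile normalization and to 0 higher and 11 lower without scaling, and the calls of CYC1, NDUFA2 and NDUFS8 were lost under both. Between P114 and CMT-U27, 4 genes were higher in P114 and 7 were lower, with 11.3% and 15.4% of all named genes called, and the median difference was -0.29.

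These medians depended on the scaling between channels. After quantile normalization, the median difference was 0.38 between CMT-U27 and CMT-U309, 0.24 between P114 and CMT-U309 and -0.24 between P114 and CMT-U27, while the medians over all named genes were between 0.00 and 0.02. Without any scaling they were 0.40, -0.33 and -0.75, and the medians over all named genes were -0.23, -0.69 and -0.43. Relative to all named genes, the set was higher in CMT-U27 than in CMT-U309 by 0.63, 0.38 and 0.63 with median scaling, quantile normalization and no scaling. Relative to the genes well above background in every channel, these values were 0.47, 0.38 and 0.46. For P114 minus CMT-U27 with median scaling, the shift was -0.32 relative to all named genes and -0.18 relative to those well above background. The direction relative to all named genes was kept under each of these scalings in each pair of lines.

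**Figure D1:**
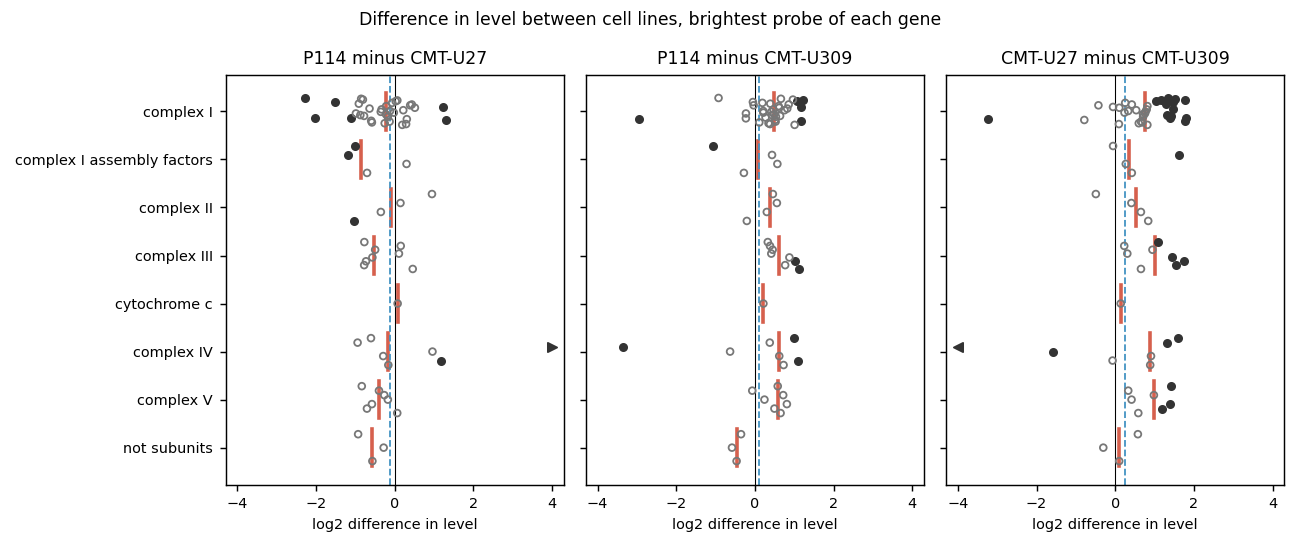
Difference in log2 level between 2 cell lines for each gene, by complex. Filled points passed the test (adjusted p under 0.05 and a difference over 1), open points did not, red bars are medians of a group and the dashed line is the median of all genes well above background in every channel. Triangles mark COX7A1, whose fitted difference lies beyond the axis and rests on CMT-U27 signals not well above background. The points of NDUFA4L2 near -3 rest on lines below background too. The right panel holds most filled points, 23 on the right of 0 and 3 on the left.

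Complex I takes electrons from NADH through the flavin subunit NDUFV1 and a chain of iron-sulfur clusters. Of the 34 genes placed here by name, 13 were called higher in CMT-U27 than in CMT-U309 and 1 lower, and the median difference was 0.76. The gene called lower was NDUFA4L2, a paralog of NDUFA4 whose signal in CMT-U27 was not well above background. Among those called higher, NDUFA5, an accessory subunit, had the largest difference. Its level in CMT-U27 was 15.70 and 15.37 in monoculture and 14.93 and 15.16 in co-culture. The CMT-U309 values were 13.87 and 13.25 in monoculture and 13.33 and 13.48 in co-culture, and P114 lay between 13.02 and 13.50. CMT-U27 stood above both other lines in every channel. NDUFA5 was 3.49-fold higher in CMT-U27 than in CMT-U309 (log2 1.80 ± 0.16 SE, adjusted p = 7.83e-06) and 4.09-fold higher than in P114.

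NDUFV1 was between 14.29 and 14.49 in CMT-U27, between 13.23 and 13.72 in P114 and between 12.47 and 12.74 in CMT-U309. The 3 lines did not overlap. It was 3.42-fold higher in CMT-U27 than in CMT-U309 (log2 1.77 ± 0.14 SE, adjusted p = 3.31e-06), and its other 2 probes gave larger differences of 1.97 each. The accessory subunit NDUFA2 was higher in CMT-U27 than in CMT-U309 by 1.76 and the flavoprotein partner NDUFV2 by 1.51. NDUFS8, which carries iron-sulfur clusters, was higher than in CMT-U309 by 1.17 in CMT-U27 and by 1.23 in P114.

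NDUFV3 and NDUFS6 were lower in P114 than in CMT-U27. NDUFV3, a small accessory subunit of the flavoprotein arm, was 10.66 and 11.22 in P114 monoculture and 10.96 and 10.91 in P114 co-culture. In CMT-U27 it was between 13.06 and 13.31 and in CMT-U309 between 11.77 and 11.99. P114 was lowest in all channels and 4.85-fold below CMT-U27 (log2 -2.28 ± 0.13 SE, adjusted p = 4.74e-07). NDUFS6, an accessory subunit needed late in assembly, was 2.89-fold lower in P114 than in CMT-U27, and its 3 probes gave differences of -1.53, -1.29 and -1.52. NDUFA6 was lower in P114 by 1.12.

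NDUFA4 and NDUFC1 went the other way. NDUFA4, which copurifies with complex I and is now counted with complex IV, was highest in P114. Its 4 channels were 14.99, 15.13, 14.56 and 15.11 for P114, 14.71, 14.41, 14.31 and 14.32 for CMT-U309, and 14.04, 13.81, 13.30 and 13.46 for CMT-U27 (monoculture values first). NDUFA4 was 2.45-fold higher in P114 than in CMT-U27 (log2 1.30 ± 0.15 SE, adjusted p = 6.19e-05). Its second probe, placed on chromosome 10 (chr10:46610460-46610519) and not on chromosome 14 with the first (chr14:28835844-28835903), gave 1.59, and so the locus read by each is uncertain. NDUFC1, a small membrane subunit, was 2.34-fold higher in P114 than in CMT-U27 and 2.25-fold higher than in CMT-U309, and its difference between CMT-U27 and CMT-U309 was -0.06 (adjusted p = 0.799). NDUFS1, the largest iron-sulfur subunit, was under the required difference, with 0.39 between P114 and CMT-U27 and -0.43 between CMT-U27 and CMT-U309.

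Of the 4 assembly factors, NDUFAF3 was higher in CMT-U27 than in both other lines, by 1.61 over CMT-U309 and by 1.18 over P114. NDUFAF4, its binding partner in assembly, was lower in P114 than in CMT-U27 by 1.01 and than in CMT-U309 by 1.07. It gave -0.06 between CMT-U27 and CMT-U309. With quantile normalization, NDUFAF4 gave -0.89 for P114 minus CMT-U27 and lost that call.

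Complex II is also an enzyme of the citric acid cycle. Its flavoprotein subunit SDHA was 2.06-fold lower in P114 than in CMT-U27 (log2 -1.05 ± 0.15 SE, adjusted p = 2.56e-04), with levels between 11.64 and 12.36 against 12.74 and 13.05. The iron-sulfur subunit SDHB gave -0.35 in the same comparison and did not pass the test. The membrane anchor SDHD gave 0.95, just under the required difference. Quantile normalization exchanged these calls. SDHA fell to -0.85 and was lost, while SDHD rose to 1.11 (limma, adjusted p = 1.03e-04) and passed. No gene of complex II was called between CMT-U27 and CMT-U309, where the median was 0.53.

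The 8 genes of complex III had a median difference of 1.02 between CMT-U27 and CMT-U309, and 0.63 after quantile normalization, and 4 of them were called. All 8 differences were positive with median scaling, but that of UQCRH turned from 0.23 to -0.13 with quantile normalization. UQCR11, the smallest subunit, was between 14.61 and 14.97 in CMT-U27, between 13.69 and 14.32 in P114 and between 12.80 and 13.28 in CMT-U309. It was 3.36-fold higher in CMT-U27 than in CMT-U309 (log2 1.75 ± 0.13 SE, adjusted p = 3.45e-06). Of its other 3 probes, 2 gave 1.75 and 1.80 and the dimmest gave -0.14. The small subunits UQCR10 and UQCRQ and the core protein UQCRC1 were the other called genes, at 2.91-fold, 2.14-fold and 2.72-fold. The Rieske iron-sulfur protein UQCRFS1 gave 0.95. Cytochrome c1 (CYC1) was higher in P114 than in CMT-U309 by 1.11. Cytochrome c (CYCS) gave between 0.07 and 0.21 in the 3 comparisons and none passed the test, and quantile normalization turned it to -0.07 between P114 and CMT-U309 and to -0.25 between CMT-U27 and CMT-U309.

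The 7 genes of complex V had a median difference of 0.98 between CMT-U27 and CMT-U309, and 0.60 after quantile normalization. All 7 were positive with median scaling, but ATP5G3 turned from 0.33 to -0.08 with quantile normalization. ATP5J, ATP5D and ATP5C1, which encode the coupling factor and the delta and gamma subunits, were called, with 1.42, 1.39 and 1.20. The catalytic subunit ATP5B gave 0.59 (adjusted p = 0.012), under the required difference.

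Complex IV held the most divided group. COX8A and COX7A2L were higher in CMT-U27 than in CMT-U309 by 1.60 and 1.32, and the common isoform COX4I1 gave 0.89. COX5A gave 0.91 (adjusted p = 0.0018), but its probe comes from an expressed sequence tag and may lie on the strand opposite to the gene, so this value may not be that of COX5A mRNA. The muscle and lung isoforms COX7A1, COX6A2 and COX4I2 were lower in CMT-U27 than in P114 or CMT-U309, or nearly equal. These probes, with that of NDUFA4L2, a paralog of NDUFA4 known from cells short of oxygen, and that of NDUFV3 are shown because they are the isoform genes that did not follow the rest of the set and the gene with the largest difference between P114 and CMT-U27 among those well above background in every channel. Positions are those of the scanner files on the dog genome build canFam2, and annotation of exons in that build was not used here.
NDUFA4L2 (chr10:4346158-4346316): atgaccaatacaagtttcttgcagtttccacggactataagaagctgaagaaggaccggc
COX4I2 (chr24:24097655-24097714): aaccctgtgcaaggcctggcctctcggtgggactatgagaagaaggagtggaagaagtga
NDUFV3 (chr31:39446128-39456596): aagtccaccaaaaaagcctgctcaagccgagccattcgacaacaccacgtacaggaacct
COX6A2 (chr6:19815438-19815497): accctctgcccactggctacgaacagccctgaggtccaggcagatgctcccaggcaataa
COX7A1, bases 31 to 60 (chr1:119457861-119457920): catcAATAAAtgtgctggctttttggggaa
The positions given for NDUFV3 and NDUFA4L2 span more of the genome than the probe is long. The capitals mark AATAAA, the letters of the usual polyadenylation signal. This motif was in 17 of the 68 probes (25%) and in 6.55% of the brightest probes of all named genes, searched on the probe strand alone.

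COX7A1, the muscle isoform of subunit VIIa, showed the largest difference of the set. In CMT-U309 its level was 12.15 and 11.61 in monoculture and 11.93 and 12.21 in co-culture. In P114 it was 8.79 and 8.52 in monoculture and 8.04 and 9.18 in co-culture. In CMT-U27 it was 0.50 and 2.48 in monoculture and 2.01 and 3.30 in co-culture, and none of these 4 channels was well above background. The lines did not overlap. The level was at least 299-fold higher in CMT-U309 than in CMT-U27 and at least 26.7-fold higher in P114 than in CMT-U27. The fitted differences use CMT-U27 signals not well above background, with adjusted p of 2.3e-09 and 4.04e-08 (limma). Those p-values do not test these bounds. Such a bound sets the mean of the bright line against the lowest signal well above background on each array of the dim line, or the probe's own signal where that was higher. It was computed after Aquantile normalization between arrays, where the mean of COX7A1 was 12.46 in CMT-U309 and 8.98 in P114, and not on the scale of the levels above. COX7A1 was also higher in CMT-U309 than in P114 (log2 difference, P114 minus CMT-U309, -3.34 ± 0.27 SE, adjusted p = 1.05e-05).

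COX6A2 followed the same order at a smaller size. Its level was 9.51, 9.13, 9.29 and 9.74 in CMT-U309, 8.65, 8.88, 8.73 and 8.88 in P114 and 8.01, 7.48, 7.91 and 7.91 in CMT-U27. The lines did not overlap, and CMT-U309 was 3.02-fold above CMT-U27 (log2 -1.59 ± 0.15 SE for CMT-U27 minus CMT-U309, adjusted p = 1.54e-05). Its second, dimmer probe, well above background in 8 channels, gave -0.76. COX4I2 was between 7.70 and 8.02 in P114, between 6.53 and 6.74 in CMT-U27 and between 6.49 and 6.88 in CMT-U309, and so it was 2.25-fold and 2.15-fold higher in P114 (adjusted p = 7.48e-04 and 0.00182). NDUFA4L2 was well above background only in CMT-U309, at 5.09 and 4.53 in monoculture and 5.75 and 5.71 in co-culture. This was at least 2.49-fold above CMT-U27 and at least 1.84-fold above P114, and the bound against P114 is under the required difference. The fitted log2 differences were -3.24 for CMT-U27 minus CMT-U309 and -2.93 for P114 minus CMT-U309 (limma, adjusted p = 1.51e-04 and 6.47e-04). They use signals of CMT-U27 and P114 not well above background, and their p-values do not test the bounds.

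**Figure D2:**
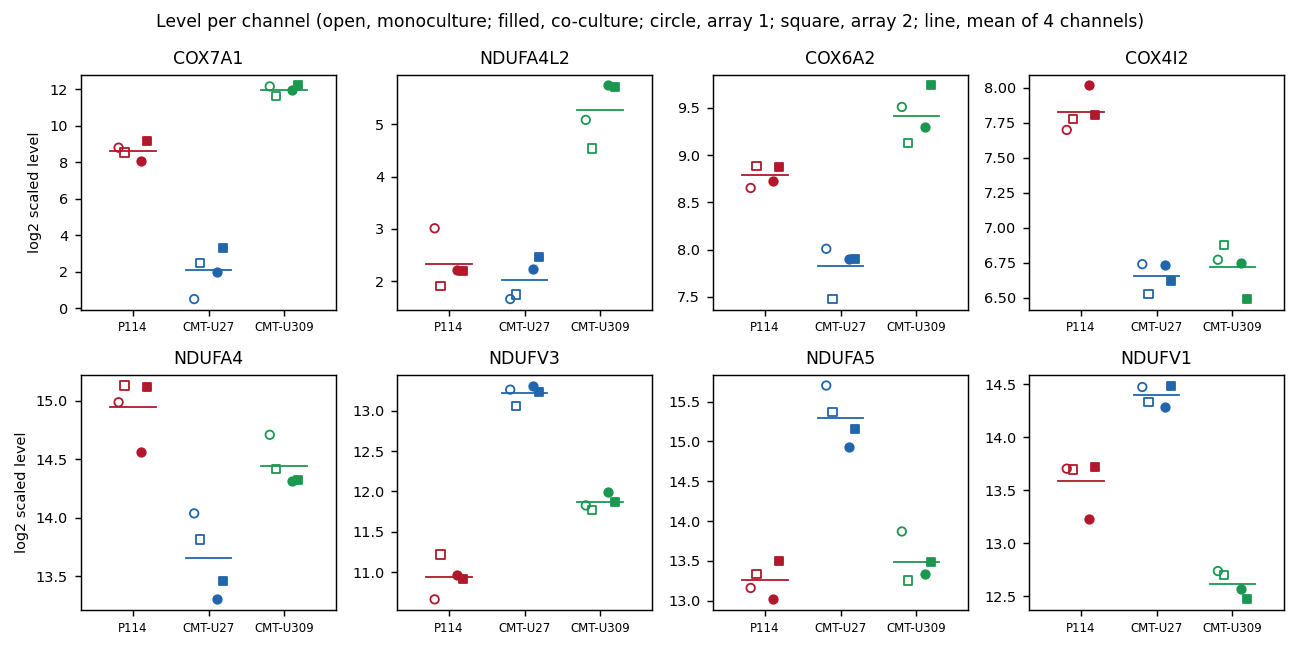
Log2 scaled level of 8 genes in each of the 12 channels, by cell line. Open symbols are monoculture, filled symbols co-culture, circles the array with co-culture in Cy5, squares the other array, and lines the mean of 4 channels. COX7A1 rises from CMT-U27 (not well above background) through P114 to CMT-U309, NDUFA4L2 is above background in CMT-U309 alone, and NDUFV3, NDUFA5 and NDUFV1 are highest in CMT-U27. The vertical scale differs between panels.

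A count of 25 genes had several probes well above background in all channels, and all probes of a gene pointed the same way in 24 of 25 genes between CMT-U27 and CMT-U309, in 21 between P114 and CMT-U27 and in 20 between P114 and CMT-U309. UQCR11, with the dim probe given above, and NDUFB5 were among the exceptions. For NDUFB5, the brightest probe gave 0.22 between P114 and CMT-U27 and the other gave -1.67.

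Other genes of the pathway were read from lists of assembly factors, regulators and enzymes of the citric acid cycle. Between CMT-U27 and CMT-U309, 6 of 22 assembly factors, 5 of 14 regulators and 4 of 12 citric acid cycle genes were called higher in CMT-U27, none of the 3 lists held a gene called lower (17.9% and 14% of all named genes were called higher and lower), and the medians were 0.54, 0.76 and 0.79. TFAM, which packages and transcribes mitochondrial DNA, was higher in CMT-U27 by 1.62 over CMT-U309 and by 1.66 over P114. PPARGC1A, a coactivator that drives mitochondrial biogenesis, was higher in CMT-U27 by 2.83 and 2.68, at signals not well above background in 3 of the 12 channels. SUCLA2, a subunit of succinyl-CoA synthetase, was lower in CMT-U309 than in CMT-U27 by 2.24 and than in P114 by 2.23. The medians were 0.00, 0.22 and 0.31 between P114 and CMT-U309 and -0.58, -0.32 and -0.18 between P114 and CMT-U27.

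Co-culture with MDSCs was then compared with monoculture. No gene of the set passed the pair of thresholds in the study's methods, a fold change over 2 with an unadjusted p under 0.05, in either direction, with 0.667% of all named genes called higher and 0.167% lower. No gene reached an adjusted p under 0.05 in limma, in the set or among all named genes. At an unadjusted p under 0.05 alone, 2 genes of the set passed (2.94%, against 9.45% of all named genes), and 4 by the methods' t-test, which gave none after adjustment. The median log2 ratio of the set was -0.06, compared with 0.00 for all named genes, with 29 genes above 0 and 39 below. The medians were -0.01 for complex I, -0.06 for complex II, -0.13 for complex III, 0.00 for complex IV and -0.21 for complex V. With 3 lines, an exact sign-flip test of a single gene cannot go below a two-sided p of 0.25, and 22 genes had the same sign in all 3 lines.

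The genes with the largest mean ratios among those well above background were small in size. ATP5D, the delta subunit of ATP synthase, gave 0.86 and 0.73 on the CMT-U27 arrays, 0.60 and 0.56 in CMT-U309 and -0.27 and 0.17 in P114 (the Cy5 orientation first). Its mean was 0.44 ± 0.16 SE (adjusted p = 0.498), a fold change of 1.36. Both arrays of CMT-U27 and of CMT-U309 were higher in co-culture, and those of P114 disagreed. NDUFB7, an accessory subunit of complex I, had a mean of 0.34, CYC1 of 0.25, NDUFB5 of 0.23 and NDUFA9 of 0.20. Leaving out 1 line or array moved them, and without P114 they were 0.57, 0.57, 0.32 and 0.31. The lowest values were 0.17 for NDUFB7 without the second P114 array, 0.07 for CYC1 without CMT-U309, and 0.13 for NDUFB5 and 0.09 for NDUFA9 without the first CMT-U27 array. The second probe of NDUFB5 gave -0.21.

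At the other end, NDUFA4 was below 0 on all 6 arrays, with -0.73 and -0.36 on those of CMT-U27, -0.39 and -0.10 in CMT-U309 and -0.42 and -0.02 in P114. Its mean was -0.34 ± 0.12 SE (adjusted p = 0.498), and its second probe gave -0.11. ATP5S had a mean of -0.28, UQCRC2 of -0.27, NDUFS4 of -0.25 and ATP5F1 of -0.25. ATP5G3, a gene of the membrane ring of ATP synthase, was also below 0 on all 6 arrays, and NDUFB9 was above 0 on all 6.

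The ratio of the set moved with the dye. With co-culture RNA in Cy5, the set had a median of -0.07 (P114), -0.21 (CMT-U27) and -0.17 (CMT-U309). With co-culture RNA in Cy3, it was 0.07, 0.03 and 0.13. The Cy5 orientation was the lower in every line. The dye part, 0.5 times the difference of the 2 arrays, had a median of -0.09, -0.11 and -0.09 in the set and of 0.01, 0.01 and -0.02 over all named genes. The 2 arrays of a line gave opposite signs in 48 genes in P114, 28 in CMT-U27, then 40 in CMT-U309. These were 70.6%, 41.2% and 58.8% of the set, against 59.5%, 35.2% and 46.1% of all named genes. The part of the dye in any single gene was not tested, and the mean of the 2 arrays holds both orientations. The fluorescence of ATP5C1 on the second P114 array was flagged as an outlier and left out, so that its P114 value is that of 1 array.

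**Figure D3:**
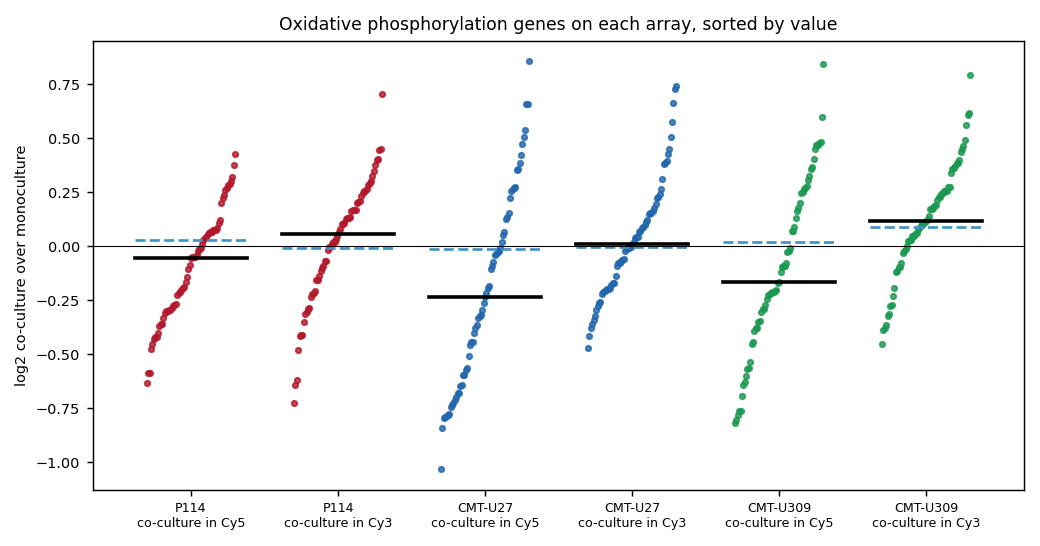
Log2 ratio of co-culture over monoculture of the 65 genes well above background in all channels, on each of the 6 arrays, sorted by value within an array. Black bars are the medians of these genes and dashed bars those of all genes well above background. In each line the black bar is lower where co-culture RNA was in Cy5.

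The mean ratios were compared between lines. Across the 65 genes well above background, CMT-U27 and CMT-U309 had an r of 0.80 between their mean ratios, against -0.25 between P114 and CMT-U27 and -0.22 between P114 and CMT-U309. Over the 7907 genes well above background the values were 0.72, -0.25 and -0.24, so this was not particular to the set. Genes are not independent replicates, and arrays of the same orientation share their dye. The 2 arrays of P114 correlated with r = -0.39 across all tested probes, although both ratios were taken as co-culture over monoculture, and so the direction of co-culture ratios in P114 is not settled by its 2 arrays. The 2 arrays of CMT-U309 did not correlate either (r = -0.09 across all probes and -0.07 across the set), while those of CMT-U27 gave 0.26 and 0.53.

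Without P114, 18 of the 68 genes reached an adjusted p under 0.05 in limma, 7 higher and 11 lower in co-culture, compared with 16.7% of all named genes (9.71% higher, 6.96% lower). These 2 lines gave 0.69 for ATP5D (adjusted p = 0.00126), 0.57 for NDUFB7, 0.57 for CYC1 and 0.42 for NDUFS8. They gave -0.40 for NDUFA4, -0.41 for NDUFAF2, -0.46 for ATP5S and -0.38 for UQCRH, the hinge protein of complex III. NDUFA1 and COX7A1 were among the 7 higher genes with probes below background in at least CMT-U27. ATP5D, NDUFB7 and COX7A1 also passed when the sign of the first P114 array was turned, and the other 15 did not. These 3 are 4.41% of the set, against 7.06% of all named genes in that setting.

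CYC1 and NDUFS8 had opposite signs in P114 and in both other lines. CYC1, a heme subunit of complex III, gave -0.36 and -0.42 in P114, 0.66 and 0.40 in CMT-U27, then 0.84 and 0.39 in CMT-U309. NDUFS8 gave -0.40 and -0.22 in P114, 0.42 and 0.51 in CMT-U27, then 0.37 and 0.39 in CMT-U309. The assembly factor NDUFAF2 went the other way, with 0.43 and 0.13 in P114, -0.64 and -0.42 in CMT-U27, then -0.22 and -0.38 in CMT-U309. These 3 genes were picked for opposite signs on both arrays of each line, so the agreement of the arrays was fixed by that choice. Such genes made up 9.23% of the 65 between P114 and CMT-U27 and 7.69% between P114 and CMT-U309. The shares over the 7907 genes well above background were higher, at 18.7% and 15.7%.

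**Figure D4:**
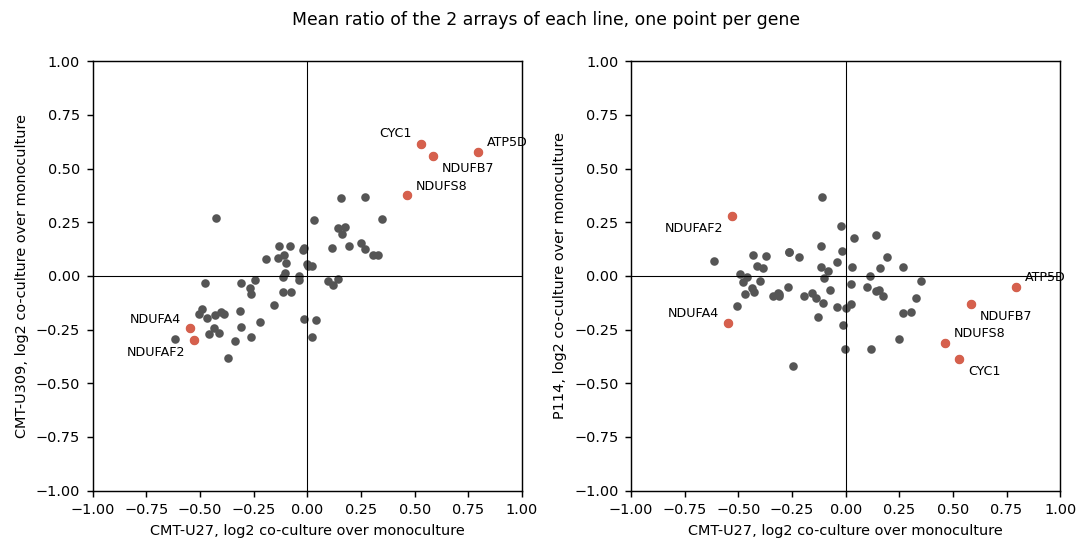
Mean log2 ratio of co-culture over monoculture in CMT-U27 against CMT-U309 (left) and against P114 (right), 1 point for each of 65 genes. Points lie along the rising diagonal on the left (r = 0.80) and scatter on the right (r = -0.25), and ATP5D, NDUFB7, CYC1, NDUFS8, NDUFA4 and NDUFAF2 are named.

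Markers of myeloid cells were read beside these ratios, since MDSCs shared the well without touching the tumor cells. The summed linear level of the 13 markers was 13553 and 13647 in the co-culture channels of CMT-U27 and 7736 and 8062 in its monoculture channels. This sum is mostly that of 1 gene, S100A8, with a mean level of 13.06 in CMT-U27, and CD68 and S100A9 came next at 10.20 and 9.03. S100A8 was well above background in all 12 channels, those of monoculture included. Its mean ratio over the 3 lines was 0.09 (limma, adjusted p = 0.890). The number of markers well above background ran the other way in CMT-U27, with 3 in each co-culture channel and 6 in each monoculture channel. Over the 3 lines, the mean ratios of CSF3R, TYROBP, S100A9 and PTPRC were -0.86, -0.49, -0.27 and -0.24. The other 9 of the 13 markers had mean ratios above 0, and the median of the list was 0.17, which is the value of ITGAM. Among these 9, SPI1, ITGAM and LYZ were at background throughout. FCER1G, AIF1 and CSF1R were well above it in only 1, 1 and 2 channels, and PTPRC, among those below 0, in 3. In P114 and CMT-U309 the co-culture and monoculture values overlapped, with 1489 to 1810 and 1555 to 1729 in P114 and 2333 to 2485 and 2099 to 2437 in CMT-U309. No marker was called between conditions. The part of these markers in the ratios was not tested. In bulk RNA, fewer cells of a kind and less RNA in each cell cannot be told apart.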

How the data were processed

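The 6 two-color arrays were read, 2 per cell line with the dyes exchanged. The authors deposited the spot intensity of each scanner file, processed by Feature Extraction (10.7.3.1 by the labels, 10.10.1.1 by the file headers): background-subtracted, detrended and dye-normalized by linear and lowess scaling, with surrogates for low signals. The deposited log10 ratio table holds the same ratios turned to co-culture over monoculture, with column medians of 0 and no scaling between arrays. From these files, channels were brought to one common median, control and outlier spots were left out, spots of a probe were averaged, and probes that never exceeded an intensity of 10 were dropped, which left 40873. Co-culture was tested on the 3 line means against 0 and the lines on 6 RNA samples with condition as a term, with limma 3.58.1 (R 4.3.3, eBayes with a trend, Benjamini-Hochberg over all probes). The scripts were tested on simulated data. The samples of a line and condition have no replicate culture, so p-values measure the spread between these samples, and the number of arrays limits the precision. For the co-culture comparison the study's thresholds were used. The sample descriptions give at least 72 h of co-culture and the methods a shorter time. Replicate numbers mark the dye orientation. Same-numbered arrays of different lines correlated from 0.47 to 0.61 with co-culture RNA in Cy3 and from -0.22 to 0.40 in Cy5, and so the numbers do not pair all arrays. Named genes were members called for co-culture, the 5 largest and 5 smallest co-culture ratios among members well above background, up to 5 called members in each direction per pair of lines with the largest differences, a list of catalytic subunits and isoforms, and members of opposite sign between lines. Other members were named after their values were seen. Of that list, ATP5A1, COX6A1, COX6B1, COX6B2 and COX7A2 had no probe by these names. Members and lists were chosen with earlier results of these data known. Of the 68 symbols, 58 matched the RefSeq gene table (another genome build, names only). Alternatives were other scalings, background correction, filters, tests and left-out arrays or lines. Plots were drawn with matplotlib 3.10.9 in Python 3.11.15.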

Additional observations from a re-analysis of the deposited data

Results flagged for a closer look

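Some genes well above background in every channel had co-culture ratios of opposite sign in 2 cell lines on both arrays of each line. The differences between lines were not tested, since each line has 1 pair of RNA samples. There were 6 such genes of 65 (9.23%) between P114 and CMT-U27, against 18.7% of 7907 genes, 5 (7.69%) between P114 and CMT-U309, against 15.7%, and 3 (4.62%) between CMT-U27 and CMT-U309, against 5.54%. The share in the set was below that of all genes in each pair.

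Between P114 and CMT-U27, the difference of the mean log2 ratios (P114 minus CMT-U27) was -0.92 for CYC1, -0.77 for NDUFS8, 0.81 for NDUFAF2, 0.47 for NDUFAF1, 0.38 for COX4I1 and 0.25 for NDUFAF3. Between P114 and CMT-U309 (P114 minus CMT-U309) it was -1.002 for CYC1, -0.69 for NDUFS8, 0.58 for NDUFAF2, 0.40 for COX4I1 and 0.38 for COX4I2. Between CMT-U27 and CMT-U309 (CMT-U27 minus CMT-U309) it was -0.70 for NDUFAF4, -0.22 for UQCRFS1 and -0.14 for NDUFAF3. CYC1, NDUFS8, NDUFAF2 and COX4I1 had the sign of P114 opposed to both other lines.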

How the results depend on the processing

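No gene of the set passed the methods' thresholds for co-culture in either direction under any alternative, except that the count called higher was 0 to 1 and the count called lower 0 to 0 when a line or an array was left out (1 without P114 and 1 without the first CMT-U309 array). The gene called without P114 was NDUFA1 (log2 1.37), whose probe was well above background in none of the channels. The median co-culture ratio was -0.06, became -0.0031 with the sign of the first P114 array turned, and ranged from -0.097 to -0.0017 with a line or an array left out. With 6 single arrays and their dye-swap number as a replicate block, the counts were 0 and 0 and the median ratio was -0.05. No member had an absolute mean log2 ratio of at least 1, so this change of the error could not add a call. Members at an unadjusted p under 0.05 rose from 2 to 10 in it (limma). That fit counts the 2 arrays of an RNA pair as separate. Adjusted p under 0.05 was reached by 18 genes without P114 (26.5%, against 16.7% of all named genes) and by 3 with the sign of its first array turned (4.41%, against 7.06%), and by none under any other alternative.

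The medians between lines were 0.38, 0.36 and 0.40 for CMT-U27 minus CMT-U309 with quantile normalization, normexp with loess and Aquantile, and no scaling, -0.24, -0.21 and -0.75 for P114 minus CMT-U27, and 0.24, 0.19 and -0.33 for P114 minus CMT-U309. Without scaling the last median reversed, the counts called higher and lower were 0 and 11 for P114 minus CMT-U309 and 1 and 28 for P114 minus CMT-U27. For P114 minus CMT-U309, 2 genes were called higher with quantile normalization, and 0 higher and 1 lower with normexp. With probes well above background only, 1 gene was called lower in P114 minus CMT-U309 and 1 in CMT-U27 minus CMT-U309, since COX7A1 and NDUFA4L2 left the fit, and the median of P114 minus CMT-U27 was -0.33. It was -0.28 over the median of all probes of a gene and -0.32 in monoculture channels, where P114 minus CMT-U309 gave 0.49. Leaving out an array gave medians of 0.67 to 0.77, -0.36 to -0.19 and 0.40 to 0.55, and 6 to 11 genes lower in P114 than in CMT-U27 (11 without the second P114 array). The called genes with the largest line differences, up to 5 in each direction and pair, kept their sign, while 24 of their 320 values fell below the threshold, 17 of them between P114 and CMT-U309. A slide block could not be fitted, as each line has its own slide. The cause of these shifts was not tested.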
